A study of Rattus norvegicus with 22 samples.

Results

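The genes described here code for proteins that sense, form, carry and remove adenosine. They are the adenosine receptors Adora1, Adora2a, Adora2b and Adora3, the cell surface enzymes Entpd1, Entpd2 and Nt5e, the nucleoside transporter Slc29a1, and the enzymes Adk and Ada. They were picked by gene symbol, and all 10 were found among the 32883 genes of the count table. RNA was sequenced from ventral cervical spinal cord (segments C3-C6) of adult Sprague-Dawley rats aged 3 to 4 months, with 1 library per rat. The groups were 5 intact males, 5 castrated (GDX) males, 6 intact females and 6 ovariectomized (OVX) females, all without a genetic change. GDX and OVX rats had bilateral removal of the testes or ovaries under isoflurane after buprenorphine, and their tissue was taken 2 weeks later. Intact rats were matched for age and are not described as having had sham surgery, and all rats were perfused with saline before the dorsal part of the cord was removed. The question was how loss of the gonads changes gene expression in a part of the cord that holds motor neurons, in each sex.

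Adenosine is formed outside cells when released ATP is stripped of its phosphates, first by the ecto-nucleotidases of the Entpd family and then by the ecto-5'-nucleotidase encoded by Nt5e. It acts on G protein coupled receptors that either lower cAMP (A1 and A3) or raise it (A2a and A2b), and it is taken up through equilibrative transporters and converted by adenosine kinase to AMP or by adenosine deaminase to inosine. In the spinal cord adenosine is known as a damper of synaptic transmission through A1 receptors and as a modulator of breathing-related plasticity in phrenic motor neurons through A2a receptors.

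Between 12371756 and 17571887 reads were counted per library, and the medians were 14196615 (intact males), 15645521 (GDX), 14640726 (intact females) and 14766802.5 (OVX). Levels are given in CPM, which are read counts scaled to library size with TMM factors. Levels of different genes are not compared with each other, since transcript lengths were not used here, and where a list is summed the gene with the most CPM over all rats is only named. Rats carry the numbers of their labels, so that intact males are 1, 2, 3, 5 and 6 and GDX males 1, 2, 4, 5 and 6. Libraries fell into a shorter and a longer class of average fragment size. All 11 libraries of GDX and OVX rats were in the shorter class. So were 4 intact rats (males 2 and 5, females 1 and 4), while the 7 libraries of the longer class all came from intact rats. Fragment class and removal of the gonads can therefore be separated only through the 4 intact rats of the shorter class. Markers of motor neurons were read, some of them at low levels only. The motor neuron marker Prph, the gene of its list of 7 with the most CPM, had between 213 and 282 CPM as a group mean, and Chat between 35.1 and 46.4 CPM. Mnx1, Isl1 and Mmp9 of the same list had at most 3.81, 2.49 and 0.404 CPM as group means. The 6 markers of dorsal horn neurons summed to between 4.18 and 5.39 CPM as group means, with Npy at 0 in intact males. The samples are bulk tissue, so fewer cells of a type and less RNA per cell cannot be told apart.

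Of the 10 genes, 9 passed the filter on low counts in each of 5 comparisons and were tested with edgeR's quasi-likelihood test, with p-values adjusted over all genes tested. Differences are called at an adjusted p under 0.1. In intact males against intact females 1 of the 9 differed, Nt5e, where 599 of 14937 genes did (4.01%). At an unadjusted p under 0.05 it was again 1, where 2317 genes did (15.5%), and DESeq2 also called 1. In GDX against intact males 0 of the 9 differed, while 1995 of 14931 genes did (13.4%, or 6.78% higher and 6.58% lower). Entpd1 and Adk, or 2 of the 9, had an unadjusted p under 0.05, as had 3549 genes in all (23.8%), and DESeq2 called 0. In OVX against intact females 0 differed in edgeR and in DESeq2, and 5 of 14910 genes did in edgeR (0.0335%). There Nt5e was the 1 gene with an unadjusted p under 0.05, as were 1516 genes in all (10.2%). For the interaction, the effect of GDX minus that of OVX, 0 of the 9 differed in edgeR and in DESeq2, and 18 of 15562 genes did in edgeR (0.116%). None of the 9 had an unadjusted p under 0.05, which 1810 genes had (11.6%). In GDX males against OVX females 0 of the 9 differed in edgeR and in DESeq2, and 35 of 15084 genes did in edgeR (0.232%). Nt5e had an unadjusted p under 0.05 there, as did 1413 genes in all (9.37%). The comparisons share groups, so their results are not independent of each other.

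**Figure D1:**
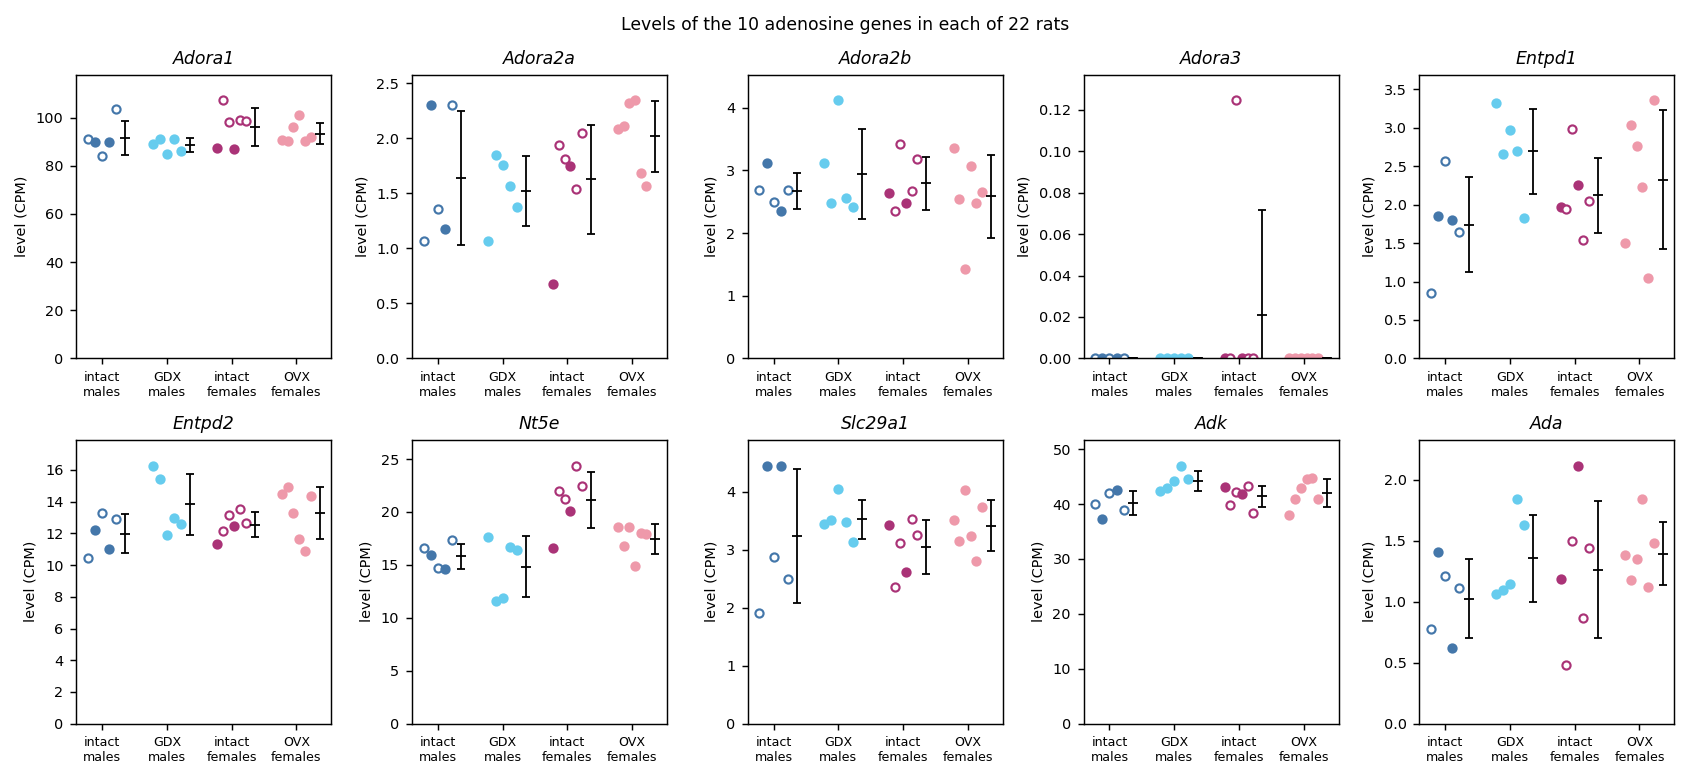
Level in CPM (vertical axis, from 0) of each of the 10 genes in every rat of the 4 groups (horizontal axis). Filled points are libraries of the shorter fragment class and open points of the longer class, bars show the mean ± SD. Nt5e lay highest in intact females, and Adora3 was at 0 in 21 of 22 libraries.

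Adora1 codes for the A1 receptor, which couples to inhibitory G proteins and is the main adenosine receptor of neurons. Its level was 92.6 ± 6.17 CPM (SD, n = 22), from 1113 to 1809 reads per library. Intact females had the highest mean, 96.2 ± 7.8 CPM (n = 6), followed by OVX females with 93.3 ± 4.29 CPM (n = 6), intact males with 91.7 ± 7.08 CPM (n = 5) and GDX males with 88.5 ± 2.88 CPM (n = 5). The SD ranges of neighbours in this order overlapped, as did all groups. The log2 fold change was -0.05 (SE 0.052, 95% interval -0.16 to 0.06) after GDX and -0.04 (SE 0.051, 95% interval -0.15 to 0.07) after OVX. Intact females split by fragment class, with 98 to 107 CPM in the 4 longer libraries and 86.7 to 87.4 CPM in the 2 shorter ones. Over the 11 intact rats, with sex as a term, longer minus shorter libraries gave 0.13 (SE 0.054, unadjusted p = 0.0292, adjusted p = 0.582, edgeR). Between the shorter libraries alone, with 2 intact females left, the log2 fold change of Adora1 after OVX was 0.10 (adjusted p = 0.843, edgeR). Over all 12 females it was -0.04, and neither value passed the test.

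Adora2a codes for the A2a receptor, which raises cAMP through stimulatory G proteins. It had only 12 to 42 reads per library, a level of 1.71 ± 0.461 CPM (SD, n = 22). OVX females had 1.56 CPM as their lowest value, 2.09 as median and 2.34 as highest, and intact females 0.676, 1.78 and 2.04. In 4 of 6 OVX females Adora2a lay above every intact female, and the other 2 fell among them. After OVX the log2 fold change was 0.34 (SE 0.23, 95% interval -0.15 to 0.82, adjusted p = 0.666). Intact female 1 had the lowest level of all 22 rats, and without this library the fold change was 0.17. With fragment class as a term it was 0.78 (adjusted p = 0.649), and with shorter libraries only 0.77, where intact female 1 is 1 of 2 intact females left. For Adora2a the interaction was -0.43 (SE 0.36, adjusted p = 0.692), and with shorter libraries only -0.94 (adjusted p = 0.541). In GDX males Adora2a was at 1.06, 1.85, 1.76, 1.56 and 1.37 CPM, in intact males at 1.06, 2.30, 1.36, 1.18 and 2.30 CPM. Intact males 2 and 6 lay above every GDX male and the lowest rats of both groups were level, with -0.10 after GDX (SE 0.27, adjusted p = 0.860). GDX males against OVX females gave -0.41 (SE 0.20, 95% interval -0.83 to 0.02, adjusted p = 0.548), with 2 of 5 GDX males below all OVX females and GDX male 5 level with the lowest of them.

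Adora2b, the gene of the low-affinity A2b receptor, had 2.74 ± 0.527 CPM (SD, n = 22), from 19 to 61 reads. Its group means ran from 2.59 CPM in OVX females to 2.94 CPM in GDX males, and the SD within groups ran from 0.286 to 0.716 CPM. Log2 fold changes lay between -0.10 after OVX and 0.24 in the interaction, with adjusted p between 0.715 and 0.923. Adora3, the gene of the A3 receptor, had 2 reads in intact female 3 and 0 in the other 21 libraries. A count of 0 allows up to 3 reads, or 0.167 to 0.241 CPM depending on the library, a limit for counting error alone. Adora3 was thus not detectable at this depth in 21 libraries, and no fold change is given.

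Entpd1 codes for CD39, which removes phosphates from ATP and ADP at the surface of microglia and vascular cells. It was at 0.851, 1.85, 2.57, 1.79 and 1.64 CPM in intact males and at 3.32, 2.66, 2.97, 2.70 and 1.83 CPM in GDX males. In 4 of 5 GDX males the level lay above every intact male, and GDX male 6 fell inside their range. The mean was 2.69 ± 0.553 CPM (SD, n = 5) in GDX and 1.74 ± 0.613 CPM (n = 5) in intact males, from 12 to 50 reads. The log2 fold change of 0.63 (SE 0.25, 95% interval 0.09 to 1.17, adjusted p = 0.144, edgeR) missed the threshold. Without intact male 3, the highest of its group, it was 0.81 with an adjusted p of 0.0749, and over the other rats left out in turn the value ran down to 0.46. With shorter libraries only it was 0.56 (adjusted p = 0.336), and over all alternatives other than rats left out the adjusted p ran from 0.123 to 0.415. In females Entpd1 had a wide spread, with 1.04, 2.50 and 3.36 CPM as lowest, median and highest in OVX and 1.54, 2.01 and 2.99 in intact rats. OVX females lay on both sides of the intact ones, 2 above and 2 below all of them, and the log2 fold change was 0.13 (SE 0.25, adjusted p = 0.922). The interaction was 0.50 (SE 0.38, 95% interval -0.27 to 1.28, adjusted p = 0.645), so a difference between the sexes was not shown. Counting error alone would give a CV of 17.3% at the mean of 33.2 reads, and the measured CV over 22 rats was 31.7%.

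Entpd2 codes for an ecto-nucleotidase that prefers ATP and is known from astrocytes. It was at 12.9 ± 1.50 CPM (SD, n = 22). GDX males had 13.8 ± 1.91 CPM (n = 5), OVX females 13.3 ± 1.65 (n = 6), intact females 12.6 ± 0.780 (n = 6) and intact males 12 ± 1.23 CPM (n = 5), and the SD ranges of neighbours in this order overlapped. GDX males 1 and 2, at 16.3 and 15.4 CPM, lay above every intact male and the other 3 lay among them. After GDX the log2 fold change was 0.21 (SE 0.10, 95% interval -0.01 to 0.43, adjusted p = 0.230), and after OVX it was 0.09 (SE 0.085, adjusted p = 0.792).

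Nt5e codes for CD73, the enzyme that makes adenosine from AMP outside the cell, and was the 1 gene of the 10 with a called difference. Intact males were at 16.6, 15.9, 14.7, 14.6 and 17.3 CPM. Intact females had 16.6 CPM as their lowest value, 21.6 as median and 24.4 as highest. Of the females 5 lay above every male, at 20.1 CPM or more, and only intact female 1 fell inside the range of the males. Intact males had 15.8 ± 1.2 CPM (SD, n = 5) and intact females 21.1 ± 2.65 CPM (n = 6). The log2 fold change of males against females was -0.41 (SE 0.088, 95% interval -0.60 to -0.22), a ratio of 0.753, with an adjusted p of 0.0239 in edgeR. With each of the 11 rats left out in turn it ran from -0.47 to -0.36, and the adjusted p from 0.00248 to 0.0692.

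Nt5e is also given by fragment class. In intact females the 4 longer libraries had 21.2 to 24.4 CPM and the 2 shorter ones 16.6 and 20.1 CPM, and in intact males the 3 longer ones had 14.7 to 17.3 CPM and the 2 shorter ones 14.6 and 15.9 CPM. Over the 11 intact rats, with sex as a term, longer minus shorter libraries gave 0.20 (SE 0.079, unadjusted p = 0.0223, adjusted p = 0.562), and 1 of 14937 genes was called in that fit (0.00669%), with 1151 at an unadjusted p under 0.05. With fragment class as a term the sex difference was -0.39 (adjusted p = 0.0167). Among the shorter libraries, 2 of each sex, it was -0.26 (adjusted p = 0.510), and 34 genes were called in place of 599. Over all alternatives other than rats left out, the adjusted p ran from 0.00211 with DESeq2 to 0.510.

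After OVX Nt5e did not pass the test. OVX females had 14.9 CPM as lowest value, 18 as median and 18.6 as highest, against 16.6, 21.6 and 24.4 in intact females. All 6 OVX females lay below 5 of the 6 intact females, and intact female 1 fell among them. The log2 fold change was -0.27 (SE 0.084, 95% interval -0.45 to -0.09, adjusted p = 0.282, edgeR). Without intact female 1 it was -0.33 with an adjusted p of 0.0612, a fit in which 113 genes were called in all. With fragment class as a term it was only -0.07 (adjusted p = 0.920), and between shorter libraries also -0.07 (adjusted p = 0.939), with 2 intact females left. Over all alternatives other than rats left out, the adjusted p ran from 0.159 to 0.939. The part of fragment class in this difference cannot be told apart from that of OVX beyond these 2 rats.

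In GDX males Nt5e was at 17.6, 11.6, 11.9, 16.7 and 16.4 CPM. GDX males 2 and 4 lay below every intact male, GDX male 1 above, and the other 2 among them. GDX gave a log2 fold change of -0.10 (SE 0.12, 95% interval -0.34 to 0.15, adjusted p = 0.671), and the interaction 0.18 (SE 0.15, adjusted p = 0.695). The value after GDX ran from -0.17 without GDX male 1 to -0.02 without GDX male 2, and was -0.22 with RIN as a term and -0.04 with shorter libraries only, where the interaction was 0.03. GDX males against OVX females, all in the shorter class, gave -0.23 (SE 0.11, 95% interval -0.47 to -0.00, adjusted p = 0.532), with 2 of 5 GDX males below all OVX females. Intact females thus had the highest mean, followed by OVX females with 17.5 ± 1.41 CPM, intact males, and GDX males with 14.8 ± 2.88 CPM, and the SD ranges of neighbours in this order overlapped. The CV expected from counting at the mean of 260.1 reads was 6.20%, and the measured one 18.2%.

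**Figure D2:**
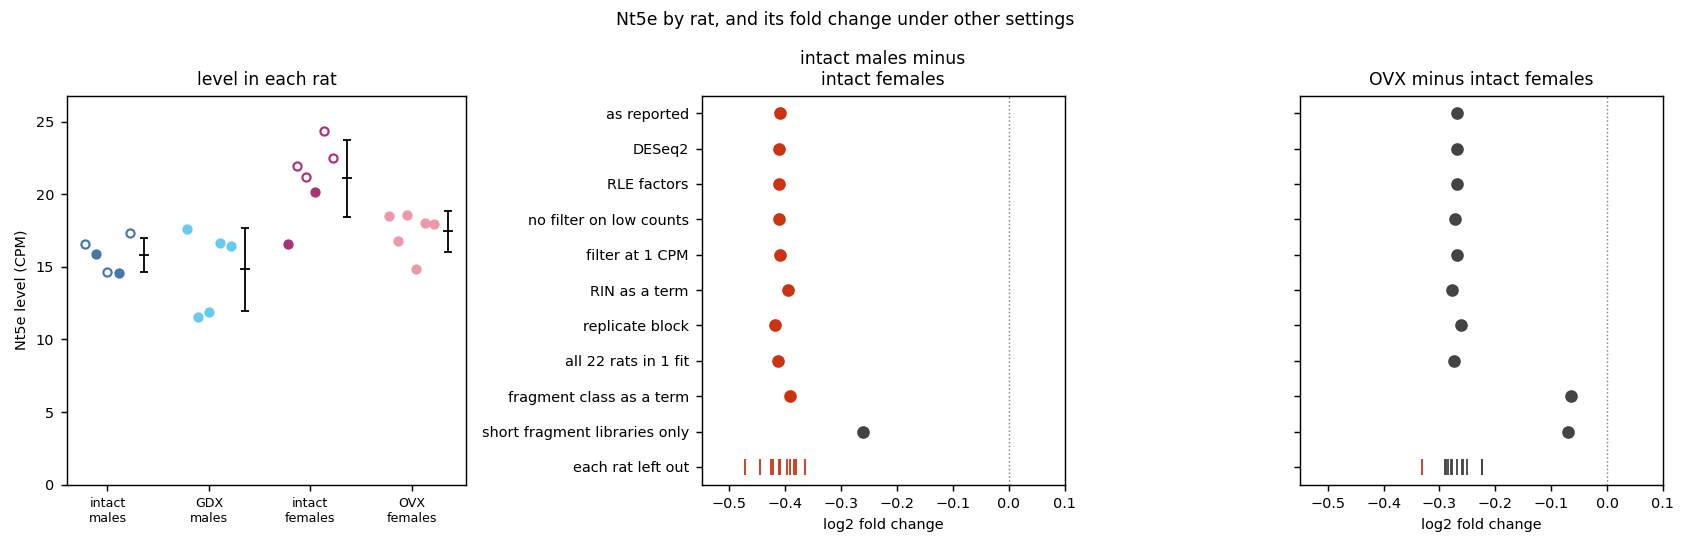
Left, Nt5e in CPM in each rat, with filled points for shorter and open points for longer fragment libraries and bars for mean ± SD. Middle and right, log2 fold change (horizontal axis) of intact males against intact females and of OVX against intact females, under each setting (rows), with red marks at an adjusted p under 0.1. The sex difference was -0.41 and was not called with shorter libraries only, and the OVX difference went from -0.27 to -0.07 with fragment class as a term.

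Markers of other cells also differed between intact males and females, where 4.01% of all genes were called. Of 6 tested genes of the list for meninges and fibroblasts 4 were lower in intact males, with a median log2 fold change of -1.25. The summed level of the list was 137, 101, 103, 65.6 and 46.9 CPM in intact males, and 106, 234 and 351 CPM as lowest, median and highest in intact females. Col1a1, with the most CPM of the list over all 22 rats, had 33.4 CPM in intact males and 78.4 CPM in intact females, Col3a1 had 29.6 and 85.2 CPM, and none of the 7 genes analysed was at 0 in either group. All 3 Schwann cell markers were lower in intact males (median -1.50), with a summed level of 81.7 ± 15.0 CPM (SD, n = 5) against 138 ± 26.2 CPM (n = 6), most of it from Pmp22. Of 5 endothelial markers 1 was lower in intact males, Cdh5 at 9.07 against 19.8 CPM, and all 5 values were below 0 (median -0.11), with a summed level of 112 ± 14.4 CPM (n = 5) against 132 ± 31.3 CPM (n = 6). After GDX the meninges list rose in 6 of 6 genes, where 6.78% of all genes did. Its sums were 127, 208, 316, 418 and 349 CPM, while Nt5e did not pass the test in that comparison. The part of these cells in the sex difference of Nt5e was not tested.

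The promoters of Nt5e, Adk and Entpd1 are shown because these genes had the smallest p-values of the 10. The sequences are those of RefSeq on build GRCr8, and 9 of the 10 genes were matched in the copy used here (Adora2a was not). They run from 250 bases before the start of the gene to 50 bases after it, in the direction of the gene. Capitals mark the GC box GGGCGG on either strand. Nt5e lies on the plus strand at chr8:98150675-98150974, Adk on the minus strand at chr15:3295696-3295995 and Entpd1 on the plus strand at chr1:249422614-249422913.
Nt5e: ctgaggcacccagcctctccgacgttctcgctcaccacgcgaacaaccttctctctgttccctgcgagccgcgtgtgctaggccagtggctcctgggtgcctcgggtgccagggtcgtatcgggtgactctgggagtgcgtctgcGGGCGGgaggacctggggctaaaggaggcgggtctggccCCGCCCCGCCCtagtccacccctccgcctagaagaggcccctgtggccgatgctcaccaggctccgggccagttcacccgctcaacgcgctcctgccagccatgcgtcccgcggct
Adk: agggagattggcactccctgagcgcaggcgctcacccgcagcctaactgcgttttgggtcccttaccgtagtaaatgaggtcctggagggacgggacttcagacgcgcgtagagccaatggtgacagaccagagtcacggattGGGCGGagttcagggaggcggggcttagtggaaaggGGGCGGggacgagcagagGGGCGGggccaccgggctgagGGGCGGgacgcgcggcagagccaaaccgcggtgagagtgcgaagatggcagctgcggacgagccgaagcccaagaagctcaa
Entpd1: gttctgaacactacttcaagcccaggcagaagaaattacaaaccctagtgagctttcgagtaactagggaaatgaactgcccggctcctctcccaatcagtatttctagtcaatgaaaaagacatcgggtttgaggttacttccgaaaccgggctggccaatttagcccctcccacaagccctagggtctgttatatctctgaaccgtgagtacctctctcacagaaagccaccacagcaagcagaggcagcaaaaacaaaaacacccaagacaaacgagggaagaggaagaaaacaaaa
Nt5e had 3 GC boxes, of which 2 share 1 base, Adk had 4 and Entpd1 0. A GC box was found in 6 of the 9 promoters and in 33.1% of all 33469 promoters of this length. Neither the TATA box TATAAA nor the cAMP response element TGACGTCA, also searched on both strands, was found in any of the 9, and 14.2% and 1.83% of all promoters held them. The share of G and C was 69.3% in Nt5e, 65% in Adk and 47% in Entpd1, against a median of 51.7% over all promoters. These matches describe letters only.

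Slc29a1 codes for ENT1, the transporter that lets adenosine equilibrate across the membrane. It was at 1.91, 4.44, 2.87, 4.45 and 2.49 CPM in intact males and at 3.45, 3.52, 4.05, 3.48 and 3.13 CPM in GDX males. Intact males 2 and 5, the 2 of the shorter class, were the highest of all 22 rats, and the other 3 intact males lay below every GDX male. After GDX the value was 0.12 on the log2 scale (SE 0.22, 95% interval -0.35 to 0.59, adjusted p = 0.792, edgeR) over all males. Between shorter libraries it was -0.33 (adjusted p = 0.399), and neither value passed the test. In intact females, shorter libraries had 2.63 and 3.43 CPM and longer ones 2.35 to 3.54 CPM, with no such split. OVX females had 3.42 ± 0.443 CPM (SD, n = 6), intact females 3.05 ± 0.469 CPM (n = 6), and OVX minus intact gave 0.16 (SE 0.15, adjusted p = 0.773).

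Adk codes for adenosine kinase, which traps adenosine as AMP inside cells and in the adult nervous system is found chiefly in astrocytes. It was at 40.1, 37.3, 42, 42.6 and 39.0 CPM in intact males and at 42.3, 43.0, 44.2, 47.0 and 44.6 CPM in GDX males. In 4 of 5 GDX males Adk lay above every intact male, and GDX male 1 lay just under intact male 5. Its log2 fold change was 0.14 (SE 0.052, 95% interval 0.03 to 0.25), a ratio of 1.1, with an adjusted p of 0.123 in edgeR. With all 22 rats in 1 fit it was called, at 0.14 with an adjusted p of 0.0857, and over all alternatives other than rats left out the adjusted p ran up to 0.343, with shorter libraries only. OVX females had 38.1, 42 and 44.7 CPM as lowest, median and highest and intact females 38.4, 42 and 43.3 CPM. OVX females 4 and 5 lay above and OVX female 1 below every intact female, with a log2 fold change of 0.02 (SE 0.048, 95% interval -0.08 to 0.13), and the interaction was 0.12 (SE 0.068, adjusted p = 0.519). Adk varied little between rats, with a CV of 5.83% against 3.99% expected from counting.

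Of cell type markers, some of astrocytes and all analysed of endothelium rose after GDX, while Adk and Entpd1 did not pass the test. Of all genes 6.78% were called higher there, and 23.8% had an unadjusted p under 0.05. Gfap and Aqp4 were the 2 of 6 astrocyte markers called, 4 of 6 values were above 0 (median 0.14), and Slc1a2 and Slc1a3 were at -0.08 and -0.03. The list summed to 4940.8 to 5455.3 CPM in intact and 5995.9 to 6946.7 CPM in GDX males, with none of the 6 at 0, and Gfap alone went from 3061.5 to 3987.1 CPM on average. All 5 endothelial markers analysed were higher (median log2 fold change 0.49), with a summed level of 112 ± 14.4 CPM (SD, n = 5) in intact and 166 ± 16.5 CPM (n = 5) in GDX males, and Flt1 the gene with the most CPM. Intact males 2 and 5, of the shorter class, summed to 128 and 122 CPM. Intact males 1, 3 and 6, of the longer class, summed to 90.2, 111 and 108 CPM. GDX males, all in the shorter class, had 143 to 188 CPM, and the part of fragment class was not tested. Of the microglial markers 0 of 6 were called after GDX in edgeR, and 0 at an unadjusted p under 0.05. All 6 of their values were above 0 (median 0.15). The part of these cells in the values of Adk and Entpd1 was not tested.

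Ada codes for adenosine deaminase, which turns adenosine into inosine, and had the fewest reads of the 9 genes tested, 7 to 33 per library. Intact males had 1.03 ± 0.322 CPM (SD, n = 5), GDX males 1.36 ± 0.358 CPM (n = 5), intact females 1.26 ± 0.562 CPM (n = 6) and OVX females 1.39 ± 0.257 CPM (n = 6). All groups overlapped, with 2 of 5 GDX males above every intact male. For Ada the log2 fold change was 0.41 (SE 0.28, 95% interval -0.19 to 1.00, adjusted p = 0.413) after GDX and 0.16 (SE 0.28, 95% interval -0.43 to 0.74, adjusted p = 0.911) after OVX. With RIN as a term it was 0.16 after GDX (adjusted p = 0.793). After OVX it was -0.21 with fragment class as a term and -0.22 with shorter libraries only, and none of the values after OVX passed the test. At a mean of 18.9 reads, counting error alone would give a CV of 23%, and the measured one was 31.1%.

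**Figure D3:**
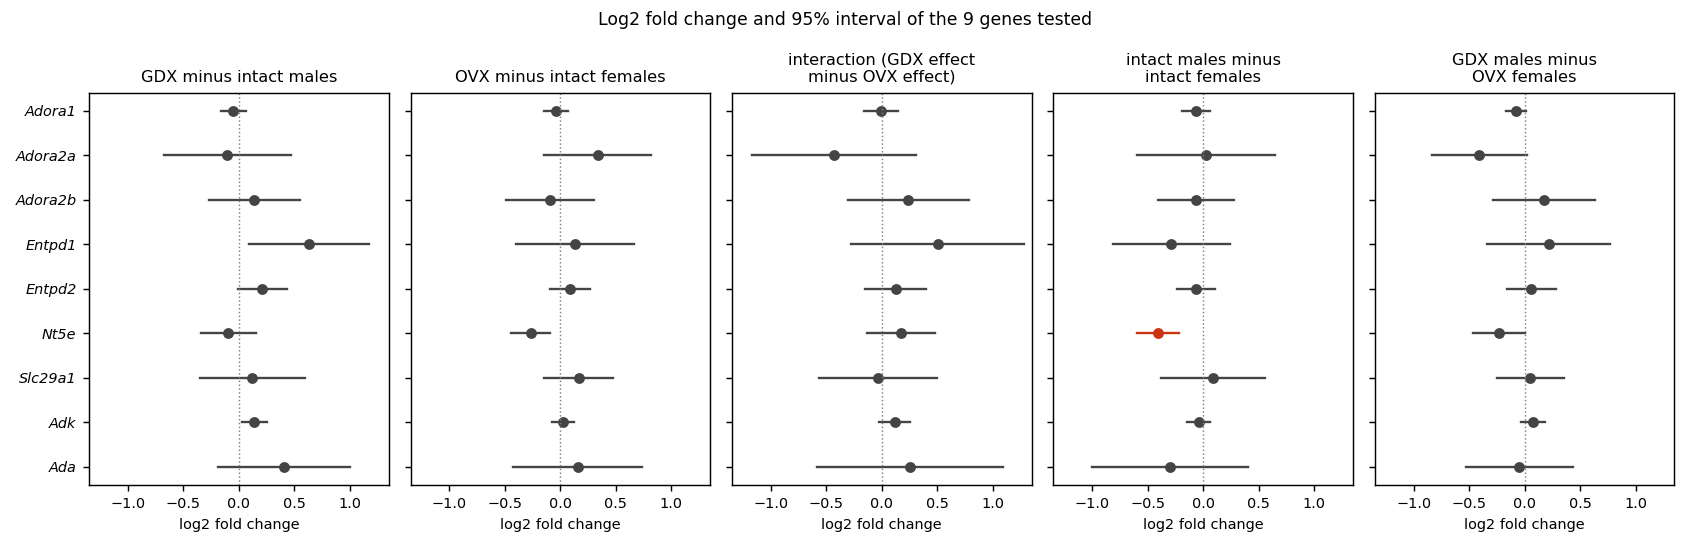
Log2 fold change (horizontal axis, points) with 95% interval (lines) of the 9 genes tested (rows) in the 5 comparisons (panels). Nt5e in intact males against intact females, at -0.41, is the only red point, which marks an adjusted p under 0.1.

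Log2 fold changes of the 9 genes had a median of 0.14 after GDX, 0.09 after OVX, 0.13 in the interaction, -0.06 between intact males and females, and 0.05 between GDX males and OVX females. Over all genes tested these medians lay between -0.0003 and 0.0028. After GDX 6 of the 9 values were above 0, the same number as after OVX.

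Other genes of adenosine and ATP signalling were followed in 6 lists with 80 genes, of which 79 were analysed. After GDX 14 of 72 tested rows were called, 4 higher and 10 lower (19.4%, or 5.56% and 13.9%), beside 13.4% of all genes, 6.78% higher and 6.58% lower. Only 3 of these 14 were called with shorter libraries alone, where 440 of 15553 genes were (2.83%). With fragment class as a term 6 list rows (8.33%) and 796 of 14931 genes (5.33%) were called. After OVX 0 of 71 were called in edgeR, with 9 at an unadjusted p under 0.05 (10.2% of all genes were) and 2 in DESeq2. The interaction gave 0 of 72 in edgeR, 7 at an unadjusted p under 0.05 (11.6% of all genes) and 1 in DESeq2, so a difference from females was not shown. GDX males against OVX females gave 0 of 71 in edgeR and in DESeq2, and 10 at an unadjusted p under 0.05 (9.37% of all genes). Between intact males and females 1 of 72 was called (1.39%), beside 4.01% of all genes.

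Ecto-enzymes, which break down nucleotides outside cells or in the secretory pathway, had 1 higher and 3 lower of 8 after GDX (median 0.12). Among all genes 6.78% were called higher and 6.58% lower. Entpd3, a neuronal ecto-ATPase, fell by 0.33 (SE 0.082, adjusted p = 0.0226, edgeR), from 27.5 ± 3.30 to 21.8 ± 1.50 CPM (SD, n = 5 each). Entpd6 fell by 0.29 (SE 0.067, adjusted p = 0.0166) and Entpd4, an enzyme of the Golgi, by 0.17 (SE 0.051, adjusted p = 0.0518). Enpp3, a nucleotide pyrophosphatase, rose by 1.24 (SE 0.35, adjusted p = 0.0422), at 0.717 ± 0.276 CPM in intact and 1.70 ± 0.656 CPM in GDX males. None of these 4 was called with shorter libraries alone, where 2 intact males are left, at -0.24 for Entpd3, -0.22 for Entpd6, -0.09 for Entpd4 and 0.99 for Enpp3. Entpd4 lost its call with GDX male 4, intact male 1 or intact male 6 left out (adjusted p up to 0.116), and Enpp3 without GDX male 5 (1.08, adjusted p = 0.115). Over alternatives other than rats left out Entpd3 was called in 7 of 9, Entpd4 and Entpd6 in 6 of 9 and Enpp3 in 4 of 8, with adjusted p up to 0.243, 0.474, 0.248 and 0.285. The other nucleoside transporters had 0 of 3 called in edgeR and 0 at an unadjusted p under 0.05 (median 0.02). The genes of ATP release, such as the pannexins, had 0 of 4 called and 2 at an unadjusted p under 0.05 (median -0.15), beside 23.8% of all genes.

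Intracellular enzymes of purine turnover had 1 higher and 1 lower of 20 after GDX (median -0.0031), beside 6.78% and 6.58% of all genes. The 2 called code for AMP deaminases, which turn AMP into IMP. Ampd3 rose by 0.16 (SE 0.052, adjusted p = 0.0760) and Ampd2 fell by 0.19 (SE 0.064, adjusted p = 0.0836). Receptors for ATP and other nucleotides had 0 higher and 2 lower of 13 after GDX (median -0.17), beside the same shares of all genes. The ATP-gated channel subunit P2rx6 fell by 0.23 (SE 0.062, adjusted p = 0.0323), from 32.3 ± 2.04 to 27.5 ± 1.85 CPM, and the ADP receptor P2ry1 by 0.30 (SE 0.093, adjusted p = 0.0586). P2ry1 lost its call without GDX male 6, intact male 1 or intact male 5 (adjusted p up to 0.128), and over alternatives other than rats left out it was called in 3 of 9, at -0.34 to -0.27 (adjusted p up to 0.231). After OVX P2ry1 was at 0.26 (SE 0.13, adjusted p = 0.519), and its interaction of -0.56 (SE 0.16, adjusted p = 0.172) did not pass. Ampd2 lost it in 5 and Ampd3 in 7 of 10 fits with a rat left out, with values of -0.22 to -0.14 and 0.13 to 0.19. Over the other alternatives Ampd2 was called in 5, Ampd3 in 4 and P2rx6 in 7 of 9, with adjusted p up to 0.258, 0.456 and 0.351. Neither these receptors nor the AMP deaminases were called with shorter libraries alone, where P2rx6 was at -0.16, P2ry1 at -0.34, Ampd2 at -0.19 and Ampd3 at 0.11.

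The G proteins, adenylyl cyclases and kinase A subunits through which adenosine receptors act had 2 higher and 4 lower of 24 rows after GDX (median -0.08). Among all genes 6.78% were called higher and 6.58% lower there. Gnai2 and Gnai3 code for inhibitory G protein subunits that A1 receptors use. Gnai2 rose by 0.27 (SE 0.049, adjusted p = 0.00772, edgeR), from 185 ± 3.99 to 223 ± 15.5 CPM (SD, n = 5 each). Gnai3 rose by 0.28 (SE 0.056, adjusted p = 0.00951, edgeR), from 33.8 ± 1.50 to 41.1 ± 2.65 CPM. After OVX Gnai2 was at 0.15 (SE 0.038, adjusted p = 0.185, edgeR), with 191 to 217 CPM in intact and 223 to 231 CPM in OVX females. Gnai3 was at 0.18 (SE 0.059, adjusted p = 0.287), and neither passed. Gnal, a stimulatory subunit, fell by 0.27 (SE 0.065, adjusted p = 0.0195, edgeR), from 30.7 ± 2.92 to 25.4 ± 0.764 CPM. Adcy3, an adenylyl cyclase, fell by 0.34 (SE 0.080, adjusted p = 0.0194), and Prkar1b, a regulatory subunit of kinase A, by 0.20 (SE 0.051, adjusted p = 0.0252). Over alternatives other than rats left out Adcy3 was called in 8 of 9, at -0.41 to -0.31 (adjusted p up to 0.107), and Prkar1b in 7 of 9, at -0.23 to -0.18 (adjusted p up to 0.154). Gnai2, Gnai3 and Gnal were the 3 genes called with shorter libraries alone, with adjusted p of 0.0921, 0.0994 and 0.0857. They were also called in the other 8 alternatives run without leaving out a rat, with adjusted p from 1.26e-05. In intact males against intact females Gnai2 was called at -0.14 (SE 0.041, adjusted p = 0.0785) and was lost in 4 of 9 such alternatives, with adjusted p up to 0.476, and in 9 of 11 fits with a rat left out, with values of -0.16 to -0.13.

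**Figure D4:**
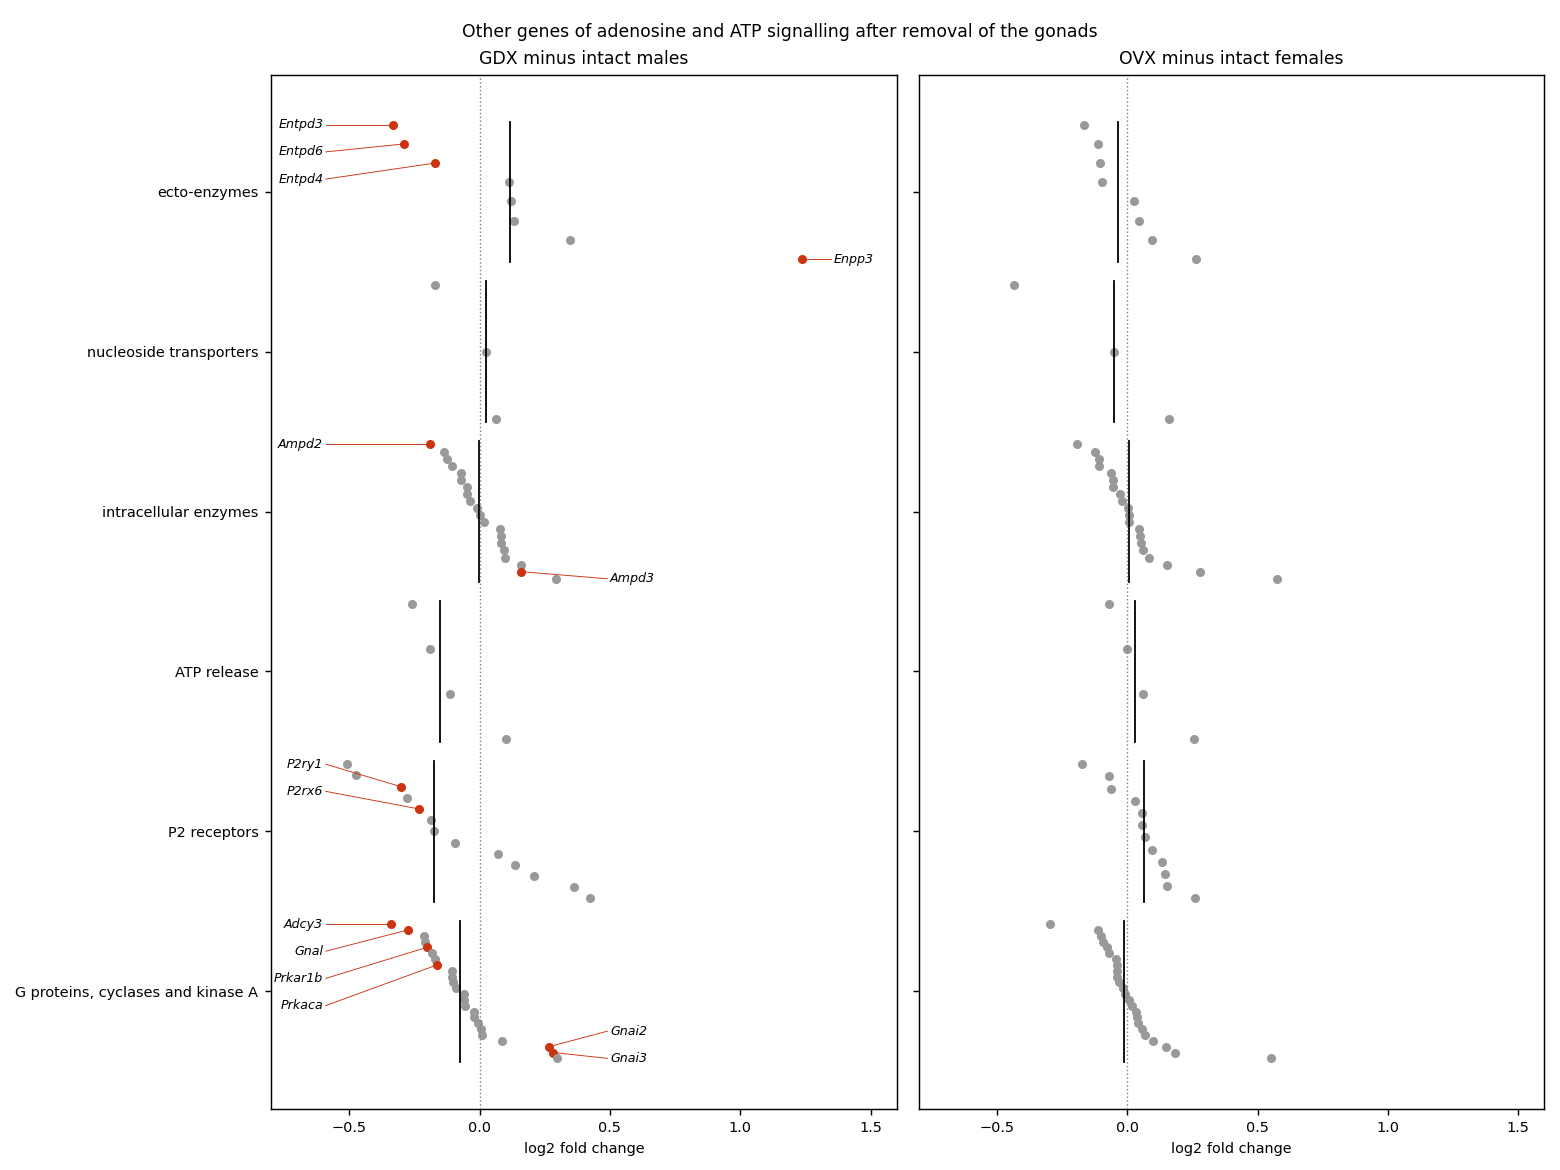
Log2 fold change (horizontal axis) of each tested gene of 6 lists (rows) after GDX (left) and after OVX (right), with genes of a list spread vertically by value. Red named points passed an adjusted p under 0.1 and black lines are list medians. The 14 called genes are all in the left panel.

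The remaining marker lists after GDX had these counts. Of all genes 6.78% were called higher and 6.58% lower there, and 23.8% had an unadjusted p under 0.05. Neurons had 0 higher and 4 lower of 7 (median -0.20). Their summed level was 1604 ± 62.8 CPM (SD, n = 5) in intact and 1376 ± 85.4 CPM (n = 5) in GDX males. Between intact rats 3 of 7 were higher in males than in females, where 4.01% of all genes were called. Motor neurons had 1 lower of 6 (median -0.21). Their markers summed to 342 and 369 CPM in the shorter libraries of intact males and 407 to 636 CPM in the longer ones. GDX males, all in the shorter class, had 380 to 476 CPM, and the part of fragment class was not tested. Dorsal horn neurons and ependyma had 0 called of 2 each in edgeR and 0 at an unadjusted p under 0.05. Oligodendrocytes had 1 higher of 6 (median 0.08) and their precursors 1 higher of 3 (median -0.05). Mural cells had 2 higher of 5 (median 0.58), Schwann cells 2 of 3 (median 1.07) and erythroid cells 3 of 3 rows (median 1.71). After OVX 0 genes of these lists were called in edgeR, with endothelium at a median of 0.49 (5 of 5 at an unadjusted p under 0.05), erythroid cells at 0.87 (4 of 4) and meninges at 0.28 (0 of 6). Of all genes 0.0335% were called there, and 10.2% had an unadjusted p under 0.05. Motor neuron markers had a median of -0.38 after OVX, with 6 of 6 values below 0 and 5 at an unadjusted p under 0.05, and summed to 524 ± 66.6 CPM (SD, n = 6) in intact and 406 ± 63.7 CPM (n = 6) in OVX females. The 2 shorter libraries of intact females summed to 411 and 511 CPM and the 4 longer ones to 497 to 599 CPM, and the part of fragment class was not tested. None was called in the interaction or between GDX males and OVX females in edgeR. Their part in the values of the adenosine genes was not tested.

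**Figure D5:**
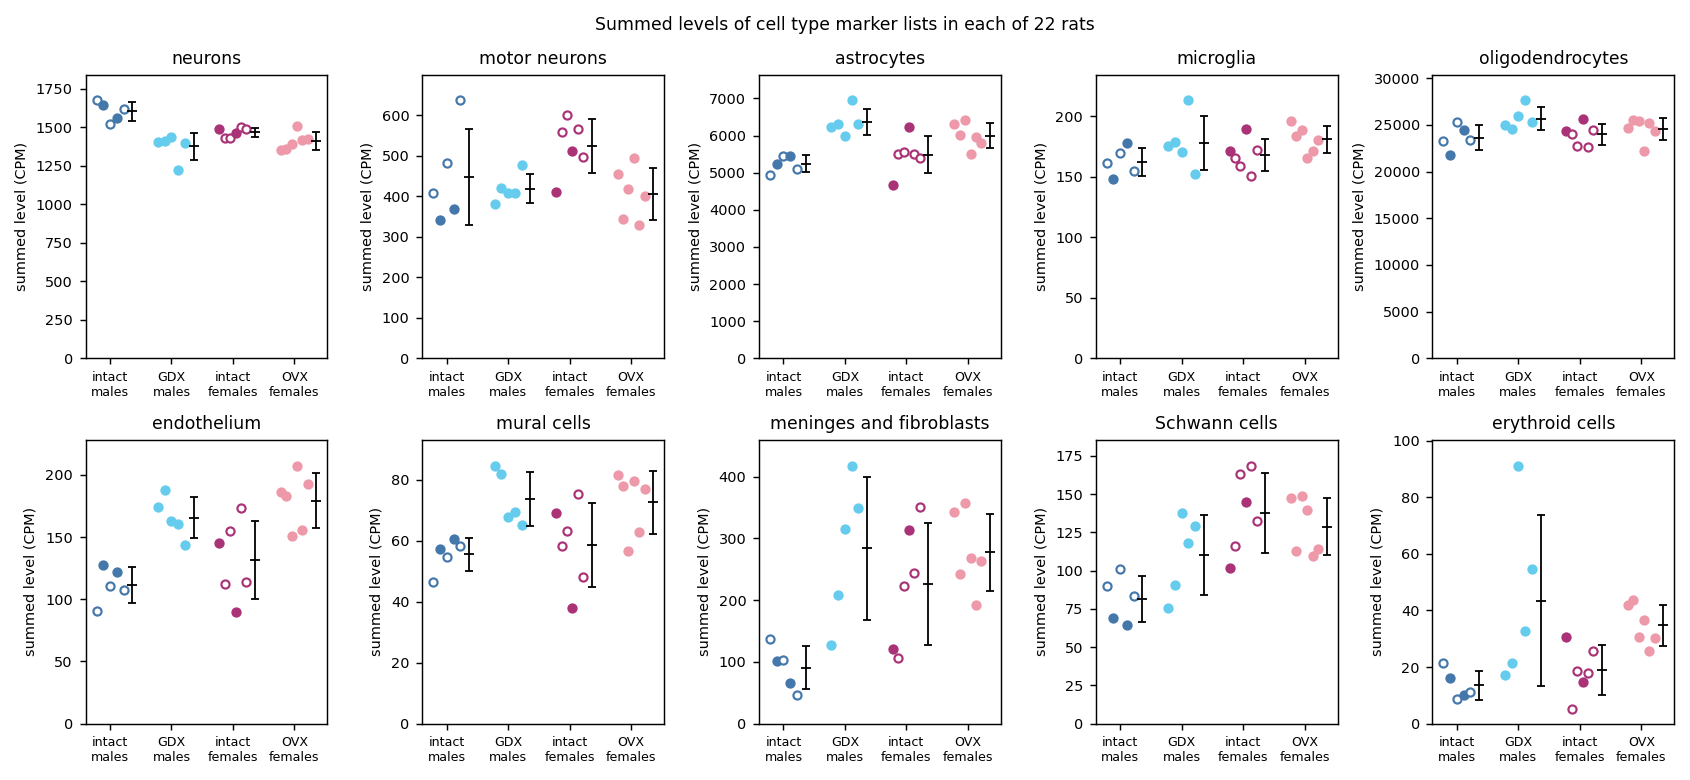
Summed level in CPM (vertical axis, from 0) of 10 lists of cell type markers in every rat of the 4 groups. Filled points are shorter and open points longer fragment libraries, and bars show the mean ± SD. Endothelial markers summed to 112 CPM in intact and 166 CPM in GDX males on average, and all libraries of GDX males were of the shorter class.

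For each of the 9 genes the closest patterns over the 22 rats were sought among 15562 genes, by Pearson's r of log2 CPM, as a description. Adora1 was most like Vav2 (r = 0.838) and Tns1 (0.769), Adora2a like Cryab (0.742) and Naa30 (0.701), and Adora2b like Nemp1 (0.765) and Ell (0.699). Entpd1 was most like F11r (0.720) and Lpar4 (0.709), Entpd2 like Vdr (0.723) and Mfge8 (0.719), and Nt5e like Fmo2 (0.795) and Znhit1 (0.787). Slc29a1 was most like Palb2 (0.768) and Pcdhga11 (0.740), Adk like Mcm3 (0.719) and F10 (0.718), and Ada like Tll1 (0.788) and Cpxm1 (0.785). With group means removed, r fell to 0.590 for Fmo2 and 0.592 for Znhit1, so that part of their likeness to Nt5e lay between groups. The highest r of many genes is high by selection.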

How the data were processed

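RNA-seq was done on ventral cervical spinal cord of 22 rats, 1 library per rat. According to the study's methods, the authors trimmed reads, used Hisat2 to map them to Rnor_6.0, and took gene counts from featureCounts of the Subread package. The submitters' processing notes name TopHat2 2.0.13 as the mapper instead. The values used are the deposited counts, not normalized. Settings for strand, multi-mapping and overlaps are not given in the sources used here, so reads shared between related or overlapping genes cannot be assigned further. No 2 libraries had identical counts. Columns of no sample numbered 0.

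Tests were run in edgeR 4.0.16 under R 4.3.3 (filterByExpr, TMM, glmQLFit, glmQLFTest, 2-sided, Benjamini-Hochberg over all genes tested, level 0.1), with only the groups compared, or all 22 rats for the interaction. SEs are the fold change divided by the square root of F, and 95% intervals use edgeR's total (prior plus residual) degrees of freedom. CPM used TMM factors over 22 libraries, and log2 CPM a prior count of 2. Without molecular identifiers, counting errors and limits are minimum ones. The alternatives run were RLE factors, DESeq2 1.42.0, a filter at 1 CPM, no filter, levels of 0.05 and unadjusted p, RIN as a term, rat number as a block, all 22 rats in 1 fit, fragment class as a term, shorter libraries only, and each rat left out. For the genes of other lists these were added after seeing the data. The scripts were tested on simulated data with 200 changed genes. The genes and lists were chosen with earlier results of these data known. Named are all 10 genes, per pathway list and comparison up to 3 called genes in each direction by adjusted p, the 2 most correlated genes of each, and the markers. Ak1, Itgam, Pecam1, Col1a2 and Foxj1 were not analysed here, and Gnas and Hba-a2 have 2 rows each.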

Additional observations from a re-analysis of the deposited data

Results flagged for a closer look

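In 37 groups of 5 or 6 rats, formed by the 10 genes and 4 groups where values differed, a single rat far from the rest was sought with Dixon's test, which by chance picks out about 1 in 20 groups. It picked out 2. Adora2a was at 0.676 CPM in intact female 1, below the other 5 intact females at 1.54 to 2.04 CPM, and Adora3 was at 0.125 CPM (2 reads) in intact female 3 with the other 5 at 0. With 5 values at 0 any read in the remaining rat is picked out, so this is no test, and 2 reads are fewer than the 3 that a count of 0 allows. No interaction of sex and removal of the gonads passed an adjusted p of 0.1 among the 9 genes tested with edgeR, where 0 had an unadjusted p under 0.05 and DESeq2 called 0.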

How the results depend on the processing

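Counts of the adenosine genes called moved as follows. After GDX 0 became 2 at an unadjusted p under 0.05 (Entpd1 and Adk), 1 with all 22 rats in 1 fit (Adk), and 0 to 1 with each rat left out (Entpd1 without intact male 3). After OVX 0 became 1 at an unadjusted p (Nt5e), and 0 to 1 with each rat left out (Nt5e without intact female 1). Between intact males and females 1 became 0 with shorter libraries only and was 1 in each fit without a rat, and between GDX males and OVX females 0 became 1 at an unadjusted p (Nt5e). The other counts of the 5 comparisons were the same. No pairing by rat number was seen. Correlations of same-numbered rats lay between -0.114 and 0.063 and 0 of them were best with their own number. So few pairs cannot exclude a pairing. With the number as a replicate block the 5 counts stayed at 0, 0, 0, 1 and 0, and Adora2b after GDX was at -0.0377.

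Pathway genes called after GDX went from 14 to 24 at an unadjusted p, 7 with the block, 6 with fragment class as a term and 3 with shorter libraries, 10 at a level of 0.05 or with RIN, 12 with no filter, 13 with the filter at 1 CPM, 14 with RLE factors, 16 with all rats in 1 fit, 20 with DESeq2, and 10 to 18 with each rat left out. In the same fits 13.4% of all genes became 23.8% at an unadjusted p, 8.56% with the block, 5.33% with the class, 2.83% with shorter libraries, 8.47% at 0.05, 8.45% with RIN, 7.48% with no filter, 14.1% with the filter at 1 CPM, 13.4% with RLE, 15.4% with all rats and 14.4% with DESeq2. After OVX they went from 0 to 9 at an unadjusted p, 2 with DESeq2 and 0 to 1 with each rat left out (1 without intact female 1), in the interaction to 7 and 1, and between GDX males and OVX females to 10 at an unadjusted p. Between intact males and females 1 went to 6 at an unadjusted p, 3 with DESeq2, 2 with all rats in 1 fit, 0 at a level of 0.05, with no filter, RIN, the block or shorter libraries, and 0 to 2 with each rat left out. Of all genes 4.01% became 15.5%, 5.5%, 3.94% and, for the fits with 0, 2.23%, 2.39%, 3.86%, 1.7% and 0.225%. With DESeq2 1.21% of all genes were called after OVX and 1.63% in the interaction.

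Of 1062 log2 fold changes of the 9 genes listed over all settings, 44 changed sign, and none of these was called in the fit reported. The other 1018 include the entries for a level of 0.05 and for unadjusted p. Those entries repeat the fit reported and could not change sign. With fragment class as a term and with shorter libraries, in this order, Slc29a1 after GDX was at -0.33 and -0.33, and after OVX Adora1 was at 0.10 and 0.10, Adora2b at 0.0247 and 0.0194, and Ada at -0.21 and -0.22. The log2 fold change of Adk after OVX was at -0.0111 and -0.0146. Slc29a1 in the interaction was at 0.0328 with the class as a term, and with shorter libraries Adora1 and Adora2b between intact males and females were at 0.0455 and 0.085. With each rat left out, the ranges that crossed 0 after GDX were Adora2a -0.22 to 0.0526, Adora2b -0.0123 to 0.20 and Slc29a1 -0.0174 to 0.27, and after OVX Ada -0.0095 to 0.35 and Adora2b -0.19 to 0.0205. Between intact males and females they were Adora2a -0.14 to 0.15, Adora2b -0.12 to 0.0032 and Slc29a1 -0.0623 to 0.23, and between GDX males and OVX females Ada -0.18 to 0.0531, Entpd2 -0.0039 to 0.11 and Slc29a1 -0.0084 to 0.10. In the interaction they were Adora1 -0.0421 to 0.0375 and Slc29a1 -0.18 to 0.11. The cause was not tested. Depth limits Ada, Adora2a and Entpd1 most, with 18.9 to 33.2 reads on average, and leaves Adora3 without a fold change.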
